A study of Mus musculus with 18 samples.

Results

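The genes of the cytosolic ribosomal proteins were examined in mouse liver after asparaginase (ASNase), an enzyme drug that depletes asparagine and, to a lesser degree, glutamine from the blood. A gene was taken as a member when its symbol followed the Rpl or Rps naming pattern or was Rplp0, Rplp1, Rplp2 or Rpsa, with pseudogenes named -ps and the S6 kinase genes left out, and when its value carried the status OK in all 6 groups. This gave 84 genes of the 37303 in the table, 51 named for the large subunit and 33 for the small subunit. Of these, 77 are the canonical genes, 46 of the large and 31 of the small subunit, and 7 are paralogs (Rpl3l, Rpl7l1, Rpl10l, Rpl22l1, Rpl39l, Rps4y2 and Rps27l).

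The 18 livers came from male and female C57BL/6J mice, 8 to 16 weeks old by the sample labels, that were wild type (WT) or carried a whole-body homozygous deletion of Gcn2 (Gcn2-/-) or of Atf4 (Atf4-/-). Each strain received 8 daily intraperitoneal injections of ASNase at 3 IU per gram body weight or of phosphate buffered saline (PBS), 3 mice per group, and livers were taken 7.5 h after the last injection. The groups are not balanced for sex, with 1 male of 3 mice in WT PBS and in both Gcn2-/- groups and 2 males of 3 in WT ASNase and in both Atf4-/- groups. Polyadenylated RNA was sequenced, and the deposited table gives fragments mapped to a gene, scaled for its length and for library depth (FPKM), 1 value per gene and group that Cuffdiff estimated from its 3 libraries, with a lower and an upper bound. No value of a single library was analysed here, so values stand without SD, no difference has a replicate check, and no p-value is given. The bounds serve as the error: over the members, the median distance from the value to its bound was 44.6% of the value in Atf4-/- PBS livers and 51.3% in Atf4-/- ASNase livers, with the other groups between.

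Each ribosome is built from a large and a small subunit, and each canonical protein is needed in about equal copy number, although its mRNA level need not be equal. Ribosomal protein mRNAs are abundant in the liver, and most begin with a terminal oligopyrimidine (TOP) tract, a C followed by a run of C and T bases, through which their translation follows mTORC1 activity by way of the RNA-binding protein LARP1. GCN2 is a kinase that senses amino acid shortage and acts on the translation factor eIF2, and ATF4 is the transcription factor whose synthesis this favours. The comparisons ask how the mRNAs of this gene family stand in liver when amino acids are depleted with and without either protein.

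The starts of the members are shown because the TOP tract is the feature this family is known for, and because the members moved together in Atf4-/- livers. RefSeq promoter sequences (GRCm38.p6, the build of the deposited files) were found for 63 of the 84 members, with 75 annotated starts. Each line gives 30 bases on the strand of the gene, of which the first 15 precede the annotated start, and capitals mark the longest run of C and T bases between 5 bases before and 10 bases after the start. Rps6 (chr4:86857353-86857382, minus strand), Rplp2 (chr7:141447636-141447665, plus), Rpl15 (chr14:18270972-18271001, minus) and Rpl35 (chr2:39005117-39005146, minus) carry long runs. Rpl12 (chr2:32961697-32961726, plus), Rpl22l1 (chr3:28805493-28805522, plus), Rplp0 (chr5:115559452-115559481, plus) and Rps12 (chr10:23787195-23787224, minus) are the members with the largest differences in Atf4-/- livers.
Rps6: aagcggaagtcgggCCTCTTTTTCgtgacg
Rplp2: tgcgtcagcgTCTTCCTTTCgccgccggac
Rpl15: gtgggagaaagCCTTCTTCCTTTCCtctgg
Rpl35: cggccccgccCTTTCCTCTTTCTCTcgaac
Rpl12: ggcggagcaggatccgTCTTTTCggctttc
Rpl22l1: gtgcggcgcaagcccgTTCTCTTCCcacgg
Rplp0: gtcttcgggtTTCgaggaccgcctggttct
Rps12: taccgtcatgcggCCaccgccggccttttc

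A run of at least 6 C or T bases was present at 27 of the 75 member starts, or 36%, and at 12.8% of all 32851 annotated starts, and a run of at least 8 was present at 26.7% and 4.49%. Rplp0 and Rps12 have short runs at these annotated starts, while a C and T run lies further downstream in the Rps12 window. In the longer window from 250 bases before to 50 after the start, searched on both strands, the ETS core CTTCCG occurred at 60% of member starts and 16.9% of all starts, and the YY1 core AAGATGG at 16% and 6.34%. A CTTCCG match can share its first bases with a C and T run. The word TGATGCA, written for the C/EBP-ATF element that ATF4 is known to bind, was in none of the 75 member windows and in 3.15% of all windows, which says only that these letters are not in these windows.

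All 77 canonical genes were expressed above 100 FPKM in every group. The median level of the canonical genes under PBS was 337 FPKM in WT, 369 in Gcn2-/- and 311 in Atf4-/- livers, and after ASNase it was 336, 394 and 898 FPKM. The ASNase-treated Atf4-/- group thus stood apart from the other 5, whose medians lay close to each other. Small subunit genes had higher levels than large subunit genes in each group, with medians of 369 against 326 FPKM in WT PBS and 1117 against 820 FPKM in Atf4-/- ASNase livers.

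**Figure D1:**
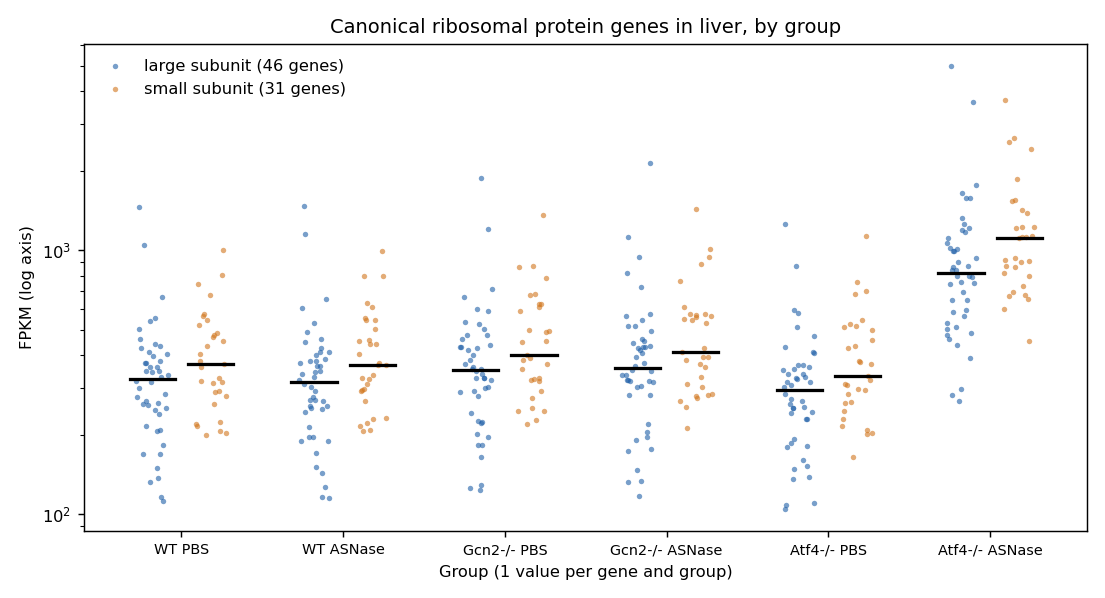
FPKM on a log axis of the 46 large subunit and 31 small subunit canonical genes in the 6 groups, 1 point per gene, with black lines at the medians. The points of Atf4-/- ASNase livers lie higher as a whole, with medians of 820 FPKM for the large and 1117 FPKM for the small subunit.

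The 5 members with the highest mean FPKM over the groups were Rpl13a, Rps27, Rplp1, Rps18 and Rps15a. Rpl13a, a large subunit protein, had 1459 FPKM in WT, 1885 in Gcn2-/- and 1256 in Atf4-/- livers under PBS, and 1473, 2131 and 4984 FPKM after ASNase. These values are imprecise: the lower bound was 0 in every group, and the entry spans a locus longer than the gene (10875 against 3204 bases). Among the canonical genes the lowest means belonged to Rpl37, Rpl29 and Rpl15, at 146, 147 and 149 FPKM. The levels of the canonical genes kept much of their order between groups: across the 77 genes, which share the libraries, Spearman's rho with the WT PBS levels was 0.99 in WT ASNase and 0.87 in Atf4-/- ASNase livers.

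Summed over the 84 members, ribosomal protein mRNAs made up 4.16% of the summed FPKM of all genes with an estimate in WT PBS livers and 4.63% in WT ASNase livers. The share was 4.19% and 5.15% in Gcn2-/- livers under PBS and ASNase. In Atf4-/- livers it was 4.16% under PBS and 10.6% after ASNase. Of the latter share, 5.74% came from the large and 4.87% from the small subunit, against 2.24% and 1.92% under PBS.

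**Figure D2:**
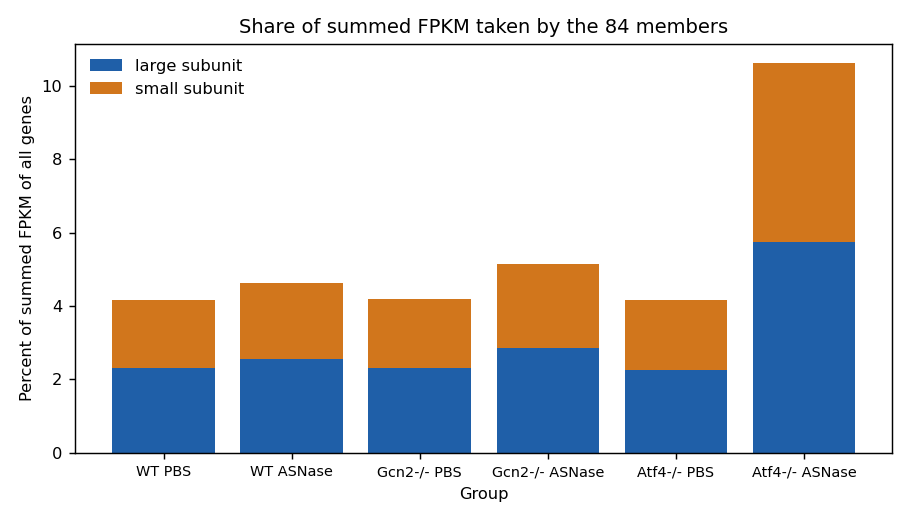
Percent of the summed FPKM of all genes that falls on the 84 members in each group, split into large and small subunit genes; bars are group values without replicate error. The share is between 4.16% and 5.15% in 5 groups and 10.6% in Atf4-/- ASNase livers.

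Gene by gene, differences were taken between log2(FPKM + 0.1) values, so that the added 0.1 shrinks those of weakly expressed genes. Here a gene counts as tested when both values were above 0 with the status OK and either was over 3 FPKM, and as called when the log2 difference was over 1.5 in size and the intervals of the groups did not overlap. Of the 84 members, 82 were tested in comparisons with a WT group and 81 in the others. Rpl10l was listed at 0 in every group, Rpl39l reached at most 0.198 FPKM, and Rpl3l was over 3 FPKM in WT livers only.

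In WT livers ASNase moved ribosomal protein mRNAs little. The median log2 difference between ASNase and PBS was -0.01 over the 82 members, with quartiles of -0.05 and 0.05, and -0.01 over all 9084 genes tested, with quartiles of -0.18 and 0.19. No member was called, where 0.76% of all genes tested were called higher and 0.121% lower, and none had separate intervals, where 0.815% and 0.198% of all genes had. The medians of the large and small subunits were -0.02 and 0.01. The most positive differences were those of Rpl3l (0.42), Rpl22l1 (0.33) and Rplp0 (0.21) and the most negative those of Rps4y2 (-0.57), Rps27l (-0.24) and Rpl7l1 (-0.23), all with overlapping intervals. Of these 6 genes 5 are paralogs.

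In Gcn2-/- livers the median difference after ASNase was 0.07 over 81 members, with quartiles of -0.05 and 0.18, and 0.02 over all 9218 genes tested. Of the members, 53 lay above 0 and none was called, where 1.56% of all genes tested were called higher and 2.13% lower. None had separate intervals either, against 1.74% of all genes higher and 2.51% lower. The large and small subunit medians were 0.05 and 0.09. Rps4y2 (0.45), Rpl10 (0.40) and Rpl27 (0.36) were the most positive members. Rps26 (-0.51) and Rpl13 (-0.38) were the most negative. Rps26 had 400 FPKM under PBS and 280 after ASNase, within overlapping intervals.

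In Atf4-/- livers ASNase was accompanied by higher levels of nearly the whole family. The median log2 difference was 1.58 over 81 members, which is 3.00-fold, with quartiles of 1.40 and 1.72, whereas over all 9485 genes tested the median was 0.08 with quartiles of -0.48 and 0.55. All 77 canonical genes and 3 paralogs had values above 0, and 76 members, or 93.8%, had a difference over 1, as had 10.9% of all genes tested. Called higher were 30 members, or 37.0%, where 2.74% of all genes tested were called higher, and no member was called lower, where 4.63% of all genes were. A further 4 members, Rpl37, Rpl38, Rps13 and Rps26, had separate intervals with differences between 1.35 and 1.47, so that intervals were separate for 34 members, where 2.99% of all genes were higher and 5.04% lower with separate intervals. Conversely, 16 members had a difference over 1.5 but overlapping intervals, among them Rps20 (2.03), Rpl13a (1.99) and Rpsa (1.86).

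**Figure D3:**
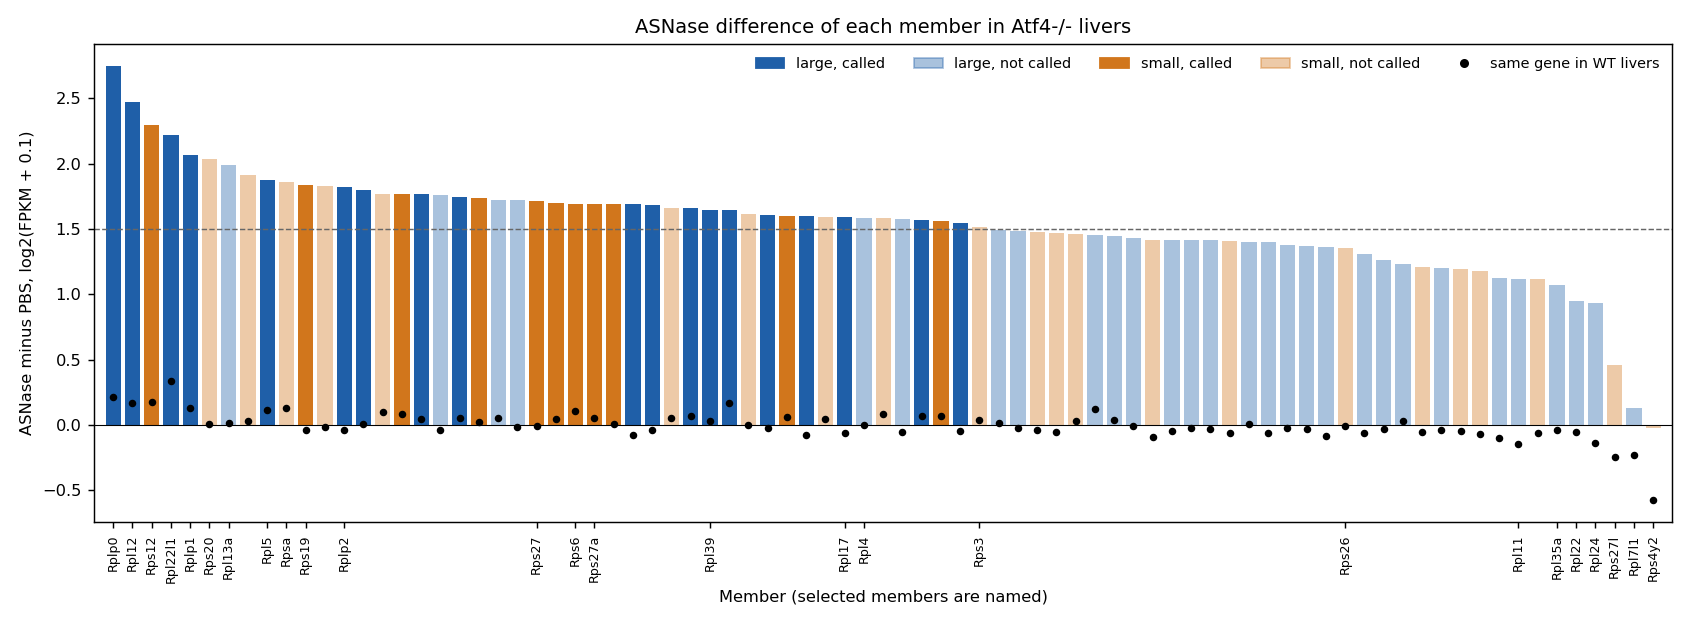
Difference of log2(FPKM + 0.1) between ASNase and PBS in Atf4-/- livers for the 81 members tested, in order of size, by subunit, with names for selected members, full colour for the 30 called members and pale colour for the others; black points give the same gene in WT livers and the dashed line marks 1.5. All canonical genes lie between 0.94 (Rpl24) and 2.75 (Rplp0), while their points in WT livers lie near 0.

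The number of members called depended on the scaling of the groups. Scaling every group to equal summed FPKM left 5 members called, scaling to the summed FPKM without the 10 highest genes left 16, and over all genes the calls were 260 higher and 439 lower without rescaling and 165 and 608 with equal summed FPKM. Equal summed FPKM moved the median of all genes from 0.08 to -0.22. The median of the members exceeded that of all genes by 1.51 as deposited and by 1.53 and 1.52 under these scalings.

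Large and small subunits had similar medians. In Atf4-/- livers the median was 1.56 for 48 large subunit members, 19 of them called, and 1.60 for 33 small subunit members, 11 of them called. The large subunit median minus that of the small subunit was -0.04, smaller than the distance between quartiles within either subunit (0.35 and 0.32). In the other comparisons it lay between -0.12 and -0.03.

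The 4 proteins of the stalk, the flexible arm of the large subunit that recruits translation factors, had a median difference of 2.27. All 4 were called higher, where 37.0% of the members and 2.74% of all genes tested were. With equal summed FPKM, Rplp0 and Rpl12 stayed called and Rplp1 and Rplp2 did not. Rplp0, the protein at the base of the stalk, had 398 FPKM in WT, 426 in Gcn2-/- and 181 in Atf4-/- livers under PBS, and 460, 516 and 1214 FPKM after ASNase. Its difference of 2.75 is the largest of the family, and it starts from a low Atf4-/- PBS value whose interval (92.8 to 268 FPKM) lies below the other 5 values. After ASNase the interval of Rplp0 was wide, 338 to 2089 FPKM, and against WT ASNase livers the difference of 1.40 was not called. Rpl12, which binds beside Rplp0 and whose entry in the table spans a locus longer than the gene, had 344, 429 and 317 FPKM under PBS in the same order of strains and 387, 434 and 1760 FPKM after ASNase, a difference of 2.47 in Atf4-/- livers. Rplp1 and Rplp2, the acidic proteins that form the tip, rose by 2.06 and 1.82.

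Of the small subunit, Rps12 had the largest difference, 2.29. Its level under PBS was 543 FPKM in WT, 681 in Gcn2-/- and 546 in Atf4-/- livers, and after ASNase 611, 766 and 2672 FPKM. The lower bound of the last value, 1211 FPKM, was above the upper bounds of the other 5 groups, which held for 4 members in all (Rps12, Rps27, Rpl12 and Rpl22l1). For 50 members the lower bound in Atf4-/- ASNase livers was above the other 5 values. Neither count was computed over all genes, so how often this occurs outside the family is not known. Rps6, the substrate of the S6 kinases, rose from 208 to 672 FPKM (1.69), Rps19 from 435 to 1550 (1.83) and Rps27a, which is made as a fusion with ubiquitin, from 379.9 to 1226 (1.69). Rps3, which also has a role in DNA repair, had a difference of 1.51 and was not called. The 4 X-linked members (Rps4x, Rpl10, Rpl36a and Rpl39) had differences between 1.42 and 1.69, in groups that both held 2 males of 3 mice. Of these 4, 2 were called higher, where 37.0% of the members and 2.74% of all genes tested were.

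Rpl5 and Rpl11 join 5S rRNA before it enters the large subunit and also bind the p53 regulator MDM2. Rpl5, another entry with a long locus, had 255 FPKM under PBS and 932 after ASNase in Atf4-/- livers, a called difference of 1.87. Rpl11 went from 368 to 797 FPKM, a difference of 1.12 with overlapping intervals. Whether these differences differ from each other was not tested, and after ASNase the intervals of Rpl5 (414 to 1450 FPKM) and Rpl11 (370.03 to 1224 FPKM) overlapped. Of the exit tunnel proteins, Rpl17 (1.59) and Rpl39 (1.65) were called and Rpl4 (1.59) was not. The smallest differences of canonical genes were those of Rpl24 (0.94), Rpl22 (0.95) and Rpl35a (1.07), none of them called. The entry named Rpl24 carries an identifier that GENCODE gives to the neighbouring gene Zbtb11, and its locus spans both genes. Across the 77 canonical genes the difference in Atf4-/- livers had a Spearman's rho of -0.01 with the WT PBS level.

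**Figure D4:**
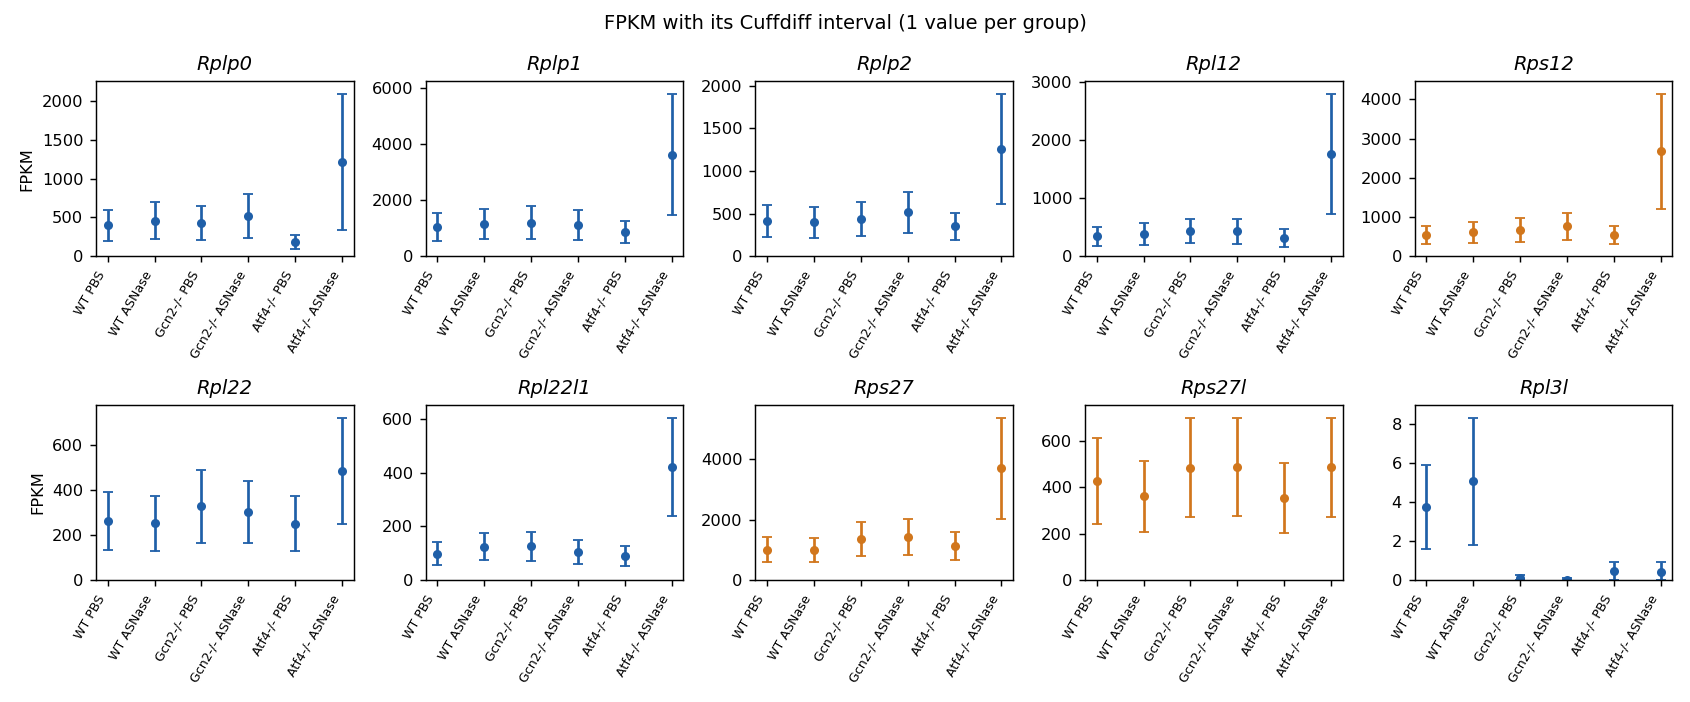
FPKM of the 4 stalk genes, of Rps12, of Rpl22 and Rps27 with their paralogs, and of Rpl3l in the 6 groups (blue, large subunit; orange, small subunit); points are group values and bars the Cuffdiff intervals, each panel with its own axis from 0. Rpl22l1 rises in Atf4-/- ASNase livers to the level range of Rpl22, Rps27l stays between 354 and 488 FPKM in all groups, and Rpl3l is above 3 FPKM in WT livers only.

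The 4 paralogs tested in Atf4-/- livers differed among themselves, from 2.22 for Rpl22l1, within the range of the canonical genes, to -0.02 for Rps4y2. Rpl22l1, the paralog of Rpl22, had 98.8 FPKM in WT, 127 in Gcn2-/- and 90.6 in Atf4-/- livers under PBS and 125, 104 and 422 FPKM after ASNase, and its difference in Atf4-/- livers, 2.22, was called. Its level was 36.1% of that of Rpl22 in Atf4-/- PBS livers and 87.1% after ASNase, and between 34.1% and 49.5% in the other groups. Rps27l, the paralog of Rps27, did not follow its relative: Rps27 rose from 1129 to 3701 FPKM in Atf4-/- livers (1.71), while Rps27l had 354 and 485 FPKM (0.46, not called). The level of Rps27l was 31.3% of that of Rps27 before and 13.1% after. Rpl7l1, a relative of Rpl7 with a role in large subunit assembly, had 23.7 and 25.9 FPKM (0.13), and Rps4y2, which GENCODE lists as the transcribed pseudogene Rps4l, had 8.80 and 8.67 FPKM (-0.02).

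Rpl3l, the striated muscle paralog of Rpl3, was called lower in both deleted strains than in WT livers, under PBS and under ASNase. It had 3.73 FPKM in WT, 0.101 in Gcn2-/- and 0.442 in Atf4-/- livers under PBS and 5.04, 0.0134 and 0.410 FPKM after ASNase. The WT groups were high and the others near 0, with called differences from WT of -4.25 (Gcn2-/-) and -2.82 (Atf4-/-) under PBS and -5.50 and -3.33 under ASNase. Skeletal muscle markers moved with it: the summed FPKM of 10 of 10 marker genes under PBS came to 829 in WT, 5.81 in Gcn2-/- and 66.0 in Atf4-/- livers, and after ASNase it was 1193, 8.95 and 144. Ckm, the muscle creatine kinase gene, had 75.9 and 107 FPKM in WT and 0.0215 and 0.0534 FPKM in Gcn2-/- livers, and 2 of the 10 genes were listed at 0 in Gcn2-/- PBS and 1 in Gcn2-/- ASNase livers. The part of muscle tissue in the values of Rpl3l was not tested.

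Without treatment the medians of the family lay close to 0 between strains. Between Gcn2-/- and WT livers under PBS the median difference was 0.17 over 82 members and 0.06 over all 8920 genes tested, and 78 members, or 95.1%, were above 0, as were 60.1% of all genes. The sign of the members' median depended on the scaling, since it was -0.023 with equal summed FPKM and 0.019 with the 10 highest genes left out of the sum. The members' median less that of all genes did not, at 0.105 as deposited and 0.106 under both of these scalings. Rpl3l was the 1 member called, where 0.65% of all genes tested were called lower and 0.392% higher, and also the 1 member with separate intervals, where 0.717% of all genes were lower and 0.482% higher. The most positive members were Rps27a (0.45), Rps27 (0.43) and Rpl13a (0.37), and below 0 after Rpl3l came Rpl6 (-0.06) and Rpl29 (-0.03). Between Atf4-/- and WT livers under PBS the median was -0.11 over the members and 0.00 over all 9039 genes, with 17 members above 0. With equal summed FPKM the members' median was -0.00499. Less the median of all genes, it was -0.116 as deposited and -0.120 with equal summed FPKM. Rpl3l was again the 1 member called, where 0.763% of all genes tested were called lower and 0.354% higher. It was also the 1 with separate intervals, where 0.852% of all genes were lower and 0.431% higher. Rplp0 stood next with -1.14, from 398 to 181 FPKM, within overlapping intervals (194 to 601 and 92.8 to 268 FPKM).

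Under ASNase, Gcn2-/- livers stood 0.24 above WT livers in the median over 82 members, against 0.05 over all 9423 genes tested. Rpl3l was called lower, where 2.59% of all genes tested were, and no member was called higher, where 1.83% were. By separate intervals alone the counts were the same, against 2.87% of all genes lower and 2.01% higher. Rps4y2 (1.05), Rpl30 (0.56) and Rpl13a (0.53) were the most positive, and after Rpl3l the most negative were Rps26 (-0.39) and Rpl13 (-0.30). Atf4-/- livers stood 1.46 above WT livers, against 0.07 over all 9577 genes. Called higher were 21 members, or 25.6%, where 2.59% of all genes tested were called higher, and Rpl3l was called lower, where 5.66% were. Separate intervals were found for 23 members on the higher side, where 2.87% of all genes had them, and for Rpl3l on the lower side, where 6.14% had. Rpl12 (2.19) and Rps12 (2.13) led, followed by Rps20 (2.05), whose intervals overlapped. Of the stalk, Rpl12 and Rplp2 were called in this comparison and Rplp0 (1.40) and Rplp1 (1.66) were not. Of the 21, 10 were large subunit and 11 small subunit members, out of 49 and 33, and with equal summed FPKM 3 members were called higher.

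**Figure D5:**
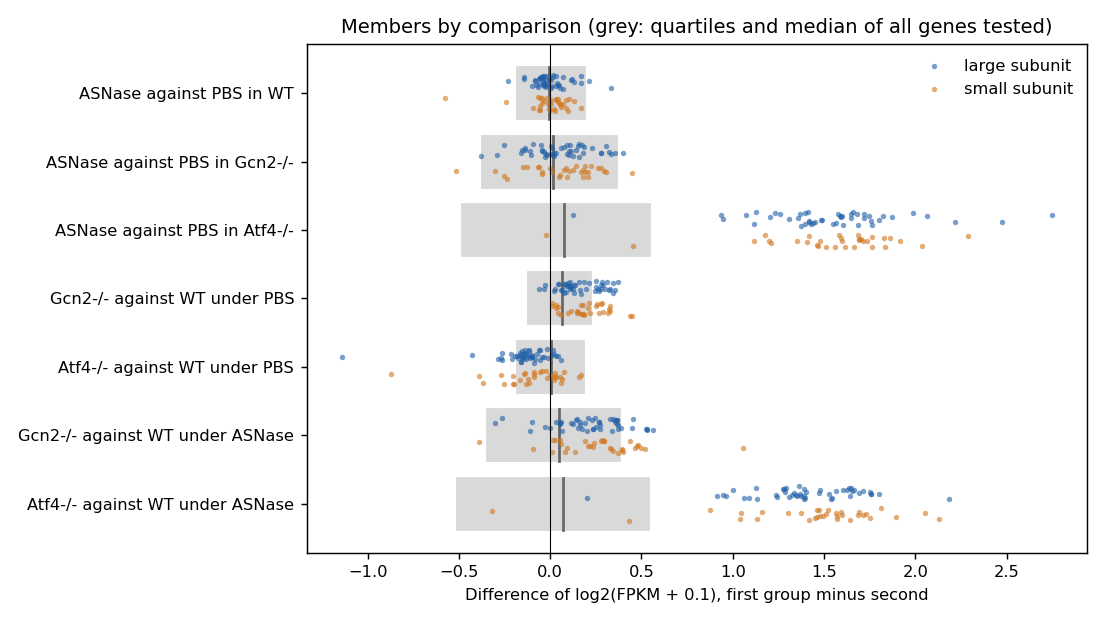
Differences of log2(FPKM + 0.1) for the tested members in the 7 comparisons, first group minus second, by subunit and without Rpl3l (-5.50 to 0.42), over grey boxes that span the quartiles of all genes tested with their median. The 2 comparisons that involve Atf4-/- ASNase livers are centred at 1.58 and 1.46, and the others lie within 0.25 of 0 in the median.

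The difference between the ASNase responses of Atf4-/- and WT livers, taken per gene, had a median of 1.54 over 81 members and 0.01 over all 8770 genes with both responses. It was over 1 in all 77 canonical genes and in 78 members, or 96.3%, and in 8.73% of all genes. The same quantity for Gcn2-/- against WT livers had a median of 0.06 and was over 1 in 1 member, Rps4y2.

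Ribosomal protein genes with other names were read beside the members. Gnb2l1, the gene of the small subunit scaffold RACK1, had 374 FPKM in Atf4-/- PBS and 1453 FPKM in Atf4-/- ASNase livers (1.96). Fau, which encodes a ubiquitin-like protein fused to a small subunit protein, went from 280 to 573 FPKM (1.03). Neither was called. In WT and Gcn2-/- livers the differences after ASNase were 0.09 and 0.21 for Gnb2l1 and -0.18 and -0.25 for Fau.

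Other mRNAs known for a TOP tract were read as a list of 15, including those of elongation factors, initiation factors and RNA-binding proteins. Their median difference in Atf4-/- livers was 1.21, with 14 above 0, where 53.8% of all genes tested were. Called higher were 2, where 2.74% of all genes tested were. Eef1b2, a subunit of the exchange factor of eEF1A, rose from 364 to 1456 FPKM, and Hnrnpa1, an RNA-binding protein of splicing, from 26.5 to 78.1 FPKM (1.55). Eef1a1, the elongation factor that delivers aminoacyl-tRNA, had 3133 and 7225 FPKM (1.21) with overlapping intervals, and Eif4b, a helicase cofactor, was the member of the list below 0, with 73.5 and 69.1 FPKM (-0.09). In WT and Gcn2-/- livers the medians of the list were 0.09 and 0.00, with none called.

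Among 6 regulators of the family, Myc, a transcription factor known to drive ribosome biogenesis, was called higher in Atf4-/- livers, from 1.75 to 13.8 FPKM (2.91), and was at most 2.71 FPKM in the other 5 groups. Larp1 had 22.7 and 29.5 FPKM (0.38), Mtor 8.90 and 11.4 (0.35), Rps6kb1 10.3 and 18.0 (0.80), Rps6kb2 11.5 and 16.1 (0.48) and Rptor 6.69 and 5.57 (-0.26), none of them called.

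Markers of cell types also differed between PBS and ASNase. The summed FPKM of the 8 hepatocyte markers with an estimate in all groups (of 10 listed) under PBS came to 52854 in WT, 56902 in Gcn2-/- and 44410 in Atf4-/- livers and after ASNase 41749, 23413 and 17533. In Atf4-/- livers 1 of 8 tested was called lower, where 4.63% of all genes tested were. Not all hepatocyte markers were lower after ASNase: 2 of 9 tested lay above 0 in WT, 2 of 8 in Gcn2-/- and 1 of 8 in Atf4-/- livers. Tat went from 613 to 1987 FPKM in Gcn2-/- and from 952 to 2013 FPKM in Atf4-/- livers, without a call. None of these markers was at 0 in any group. Under PBS and ASNase, 4 erythroid markers summed to 136 and 75.2 FPKM in WT, 80.6 and 8.35 in Gcn2-/- and 110 and 4.29 in Atf4-/- livers. The sums of 10 leukocyte markers were 236 and 119 FPKM in WT, 143 and 191 in Gcn2-/- and 240 and 80.5 in Atf4-/- livers. The markers did not move together in Gcn2-/- livers, where 7 were tested and 4 lay above 0. Lyz2 went from 54.1 to 134 FPKM there without a call. Cd74 and S100a9 were called lower, where 2.13% of all genes tested were, and no marker was called higher, where 1.56% were. The 8 pancreatic acinar markers summed to 14.2 FPKM under PBS and 329 after ASNase in Atf4-/- livers. Of the acinar list, 7 were tested and 5 called higher in Atf4-/- livers, where 2.74% of all genes tested were. Except Cela1, those tested had at most 0.383 FPKM under PBS and passed the 3 FPKM filter only through the ASNase value. Their being tested thus already required a higher ASNase value. Ctrb1, the chymotrypsinogen gene, reached 176 FPKM in Atf4-/- ASNase livers, and no gene of the list was at 0 after ASNase against 1 before. In WT livers 5 were tested and 4 called higher, where 0.76% of all genes tested were. These 4 likewise passed the filter only through the ASNase value. In Gcn2-/- livers 1 was tested and not called. In WT livers the acinar sums were 12.3 and 56.8 FPKM, and in Gcn2-/- livers, where Pnlip, Cpa1 and Prss2 were listed at 0 in both groups, 9.12 and 4.94 FPKM. The part of these cell types in the ribosomal protein values was not tested, and in bulk liver more cells of a type and more RNA per cell cannot be told apart.

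Gene-level FPKM does not resolve the deleted part of a gene, so the targeted genes do not check the labels. Eif2ak4, the gene of GCN2, had 3.04 and 2.39 FPKM in WT, 2.31 and 2.96 in Gcn2-/- and 2.19 and 3.14 in Atf4-/- livers under PBS and ASNase, and Atf4 had between 50.4 and 68.1 FPKM in the WT and Gcn2-/- groups and 32.3 and 29.3 FPKM in Atf4-/- livers.

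The members lie on 19 chromosomes, 14 of them on chromosome 7 and 4 on the X chromosome. In the table, 17 members have a locus over 1.5 times as long as the GENCODE gene with their identifier, among them Rpl12 (88383 against 3787 bases), Rpl5 (86584 against 8504) and Rpl13 (4435365 against 2895). Rps4y2 (211960 against 943) and Rpl35a (213596 against 3737), named above for extreme differences, are also among them. Reads of neighbouring genes in such entries cannot be told apart. Without these 17 members the median in Atf4-/- livers was 1.59 and 26 members were called. Ribosomal protein genes also have many near-identical processed pseudogenes, and how reads that fit several copies were shared out is not given in the sources used here.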

How the data were processed

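Liver RNA-Seq of 18 mice was analysed in 6 groups of 3, formed from the sample labels. The authors prepared poly-A libraries, used TopHat for alignment to the mm10 genome and Cuffdiff for quantification. The deposited table holds FPKM values, which the authors' Cuffdiff run estimated per group from its 3 libraries and scaled for depth and gene length, with lower and upper bounds in FPKM and a status; 0 value columns were left outside the map to groups. It holds no counts, so it does not give depth per library (library totals listed by the study were not used here), and precision was read from the bounds. The labels give an age of 8 to 16 weeks in one field and of up to 12 weeks in another.

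From the table, groups were compared on log2(FPKM + 0.1) with Python 3.11.15 and pandas 2.3.3, over all genes with status OK, both values above 0 and either over 3 FPKM. A call needs a difference over 1.5 and separate intervals; the FPKM and fold limits follow the methods of the study and the intervals stand in place of its q value. No p-value was computed. The members, gene lists and rules were chosen with earlier results of these data known. Named are the 5 highest and lowest members by level, the 3 most positive and most negative and every called member of each comparison, the paralogs, fixed role groups (stalk, 5S particle, ubiquitin fusion, exit tunnel, X-linked, Rps6, Rpsa and Rps3) and fixed lists; Rpl22, Rpl24, Rpl35a, Rpl38 and Rps13 were named after their values were seen. Gene positions are those of GENCODE, which has all 84 identifiers, 81 of them under the same name. Values of 2 genes covered by these rules are not reported here. The comparison code was tested on simulated data. Alternatives were other pseudocounts, filters, scalings, interval rules and fold limits, and other choices of members.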

Additional observations from a re-analysis of the deposited data

Results flagged for a closer look

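The summed FPKM of ribosomal protein pseudogenes, which entered none of the comparisons, was higher after ASNase than under PBS in both deleted strains. The 171 pseudogenes with -ps names summed to 72.9 FPKM in Gcn2-/- ASNase livers against 32.8 in Gcn2-/- PBS livers, and to 193 FPKM in Atf4-/- ASNase livers against 66.7 in Atf4-/- PBS livers. In WT livers the sums were 17.8 and 18.3 FPKM. The 6 pseudogenes over 3 FPKM in any group made up 62.7 of the FPKM in Gcn2-/- ASNase livers (21.4 under PBS). In Atf4-/- ASNase livers they made up 172 FPKM (54.6 under PBS). They were picked by level and all were over 3 FPKM in Atf4-/- ASNase livers, so a large share there follows from the choice. The other 165 summed to 11.5 and 10.2 FPKM under PBS and ASNase in the Gcn2-/- strain. In the Atf4-/- strain they summed to 12.2 and 21.2 FPKM. Rps13-ps1 had 61.9 and Rpl3-ps1 55.8 FPKM in Atf4-/- ASNase livers (15.3 and 16.6 under PBS). In WT livers Rps13-ps1 had 0.0361 and 0 FPKM under PBS and ASNase, and Rpl3-ps1 had 0.0599 and 0.0442. In Gcn2-/- livers Rps13-ps1 had 10.9 and 36.6 FPKM, and Rpl3-ps1 had 0.0413 and 0.215. The values of both thus already differed between strains under PBS. Rpl39-ps had 10.4 FPKM under PBS and 5.73 after ASNase in Atf4-/- livers. Relative to the summed FPKM of the members, the pseudogene sum was 0.0957% under PBS and 0.202% after ASNase in the Gcn2-/- strain, and 0.241% and 0.226% in the Atf4-/- strain. Over 3 FPKM were 6 of the 171 in Atf4-/- ASNase livers and none in WT PBS livers.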

How the results depend on the processing

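Of 314 values recomputed under alternatives, 287 moved by no more than 0.1 on the log2 scale or by no more than 1.5 times in a count or share, and 27 moved further. With equal summed FPKM the medians of the members were 0.14 (WT), 0.30 (Gcn2-/-) and 1.31 (Atf4-/-) for ASNase against PBS, -0.023 (Gcn2-/-) and -0.00499 (Atf4-/-) against WT under PBS, and 0.13 and 1.15 against WT under ASNase. The called members were then 5 in Atf4-/- livers and 4 for Atf4-/- against WT under ASNase, and those with separate intervals 8 and 5. With the 10 highest genes left out of the sum the medians were 1.42 (Atf4-/-, ASNase against PBS), 0.019 (Gcn2-/- against WT under PBS), 0.10 and 1.23 (Gcn2-/- and Atf4-/- against WT under ASNase), with 16 and 7 members called and 17 and 8 with separate intervals in the comparisons of Atf4-/- livers. The scaling itself moves every gene by the same factor, and the members' median less that of all genes stayed at 1.51 to 1.53 in Atf4-/- livers. Calls over all genes were 144 higher and 196 lower in Gcn2-/- livers as deposited and 213 and 149 with equal summed FPKM, and 248 and 542 against 163 and 731 for Atf4-/- against WT under ASNase. A combined interval in place of separate ones, without the fold limit, gave 66 members in Atf4-/- livers and 60 for Atf4-/- against WT under ASNase. The matching share of all genes was not computed. With the fold limit kept, 42 of 81 members were called higher in Atf4-/- livers, where 339 of 9485 genes were. Against WT under ASNase 31 of 82 members were called higher, where 321 of 9577 genes were. Without the paralogs named like a canonical gene, which leaves out Rpl3l, 0 members were called or had separate intervals for Gcn2-/- or Atf4-/- against WT under PBS and for Gcn2-/- against WT under ASNase. Other pseudocounts and FPKM filters changed no call among 88 values of named genes, not all of which were called as deposited. Called were 30 in Atf4-/- livers (ASNase against PBS), 22 for Atf4-/- against WT under ASNase, and Rpl3l in each other comparison of a deleted strain with WT. Of these calls the scalings ended 43 (equal summed FPKM), 29 (without the 10 highest genes) and 15 (median ratio) and reversed none. The alternative without the members of long locus was chosen after seeing the data.

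No paired analysis was possible because the table holds 1 value per group and none per library. Leaving out replicates was not run for the same reason. The bounds lay about 45% from a member's value in 5 groups and 51.3% in Atf4-/- ASNase livers (medians), so that smaller differences fall within overlapping intervals, and depth per library is not in the table and was not used here.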
